A study of Homo sapiens with 24 samples.

Results

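The PeBoW complex is a trio of nucleolar proteins, PES1, BOP1 and WDR12, and the transcripts of its 3 genes are described here across every group of the study. The members were taken by gene symbol from a table of 60609 gene rows in TPM (a transcript's share of its library, corrected for transcript length and scaled to a fixed total). All 3 passed the filter for testing, a level of 1 TPM or more in 3 or more libraries, which 16062 genes met.

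Expression was measured in A549, an established human line of lung adenocarcinoma cells, by sequencing of polyadenylated RNA. Every culture was transfected, either with a pool of siRNAs to BOP1 (siBOP1) or with an siRNA to firefly luciferase (siFLuc), a gene that human cells lack. At 48 h the cells received interferon beta (IFN-B, here IFN) at 1000 units per mL, or a mock treatment. Their RNA was collected 8 h or 12 h later. This gave 8 groups of 3 libraries, 24 in all: siFLuc mock, siBOP1 mock, siFLuc IFN and siBOP1 IFN, each at 8 h and at 12 h. The siRNA pool lowers BOP1 RNA and does not delete the gene, and all groups come from 1 cell line. The labels number the replicates of a group from 1 to 3, whereas the columns of the table are numbered 1, 2 and 4, and the 8 libraries numbered 4 were used only as members of their group. No label says that the libraries of a group came from separate cultures, so p-values measure the spread between these libraries.

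PeBoW binds the precursor of the large ribosomal subunit in the nucleolus and is required for the cuts that remove spacer RNA from the precursor of the large-subunit ribosomal RNAs. PES1 carries a BRCT domain, BOP1 and WDR12 are WD-repeat proteins, and BOP1 holds the trio together by contacting both partners. WDR12 also carries a ubiquitin-like domain, on which the giant ATPase MDN1 pulls to strip the complex from the maturing particle. In cultured cells, loss of a member stalls ribosome production and can set off a p53 response.

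PES1 and WDR12 lie on the minus strand in GENCODE 29 on GRCh38. PES1 spans bases 30576625 to 30607083 of chromosome 22 and WDR12 bases 202874782 to 203014798 of chromosome 2. RefSeq promoter windows of 300 bases on GRCh38.p14 were matched for PES1 and WDR12, and not for BOP1. The windows are shown 5′ to 3′ on the minus strand, and the capitals mark the single E-box letters CACGTG.
PES1, chr22:30591861-30592160: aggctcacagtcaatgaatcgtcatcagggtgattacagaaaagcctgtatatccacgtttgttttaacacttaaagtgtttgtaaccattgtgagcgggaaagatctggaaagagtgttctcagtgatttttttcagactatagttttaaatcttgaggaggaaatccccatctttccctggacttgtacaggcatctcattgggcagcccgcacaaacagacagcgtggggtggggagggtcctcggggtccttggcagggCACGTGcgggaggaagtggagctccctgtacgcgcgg
WDR12, chr2:202911624-202911923: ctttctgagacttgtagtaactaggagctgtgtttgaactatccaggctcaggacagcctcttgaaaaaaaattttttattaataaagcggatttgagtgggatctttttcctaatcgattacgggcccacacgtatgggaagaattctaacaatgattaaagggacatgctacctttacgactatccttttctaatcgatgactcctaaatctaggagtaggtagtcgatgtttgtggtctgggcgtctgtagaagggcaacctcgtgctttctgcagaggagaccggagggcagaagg
RefSeq's start sites in these windows lie inside the GENCODE spans, 15173 bases (PES1) and 103125 bases (WDR12) from the 5′ end of the span. The E-box of PES1 starts at base 14, with RefSeq's start site as base 1, and reads the same on both strands. These letters occur in 7.26% of 35116 RefSeq promoter windows of this length, and WDR12 has 0 matches. Neither window holds the core of the interferon-stimulated response element (GAAA, any 2 bases, then GAAA again) or TTCNNNGAA, the core of the gamma-activated site. On either strand those cores occur in 3.57% and 7.66% of the windows. GC content is 49.7% in the PES1 window and 43.7% in the WDR12 window.

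Epithelial keratins marked the cells as labelled: KRT8 lay between 2086 and 3803 TPM and KRT18 between 1785 and 2862 TPM. EPCAM was low, at 1.92 to 5.48 TPM. Of the leukocyte markers, CD3E was at 0 in 24 of 24 libraries and PTPRC in 20, while CD14 reached 5.26 TPM. The endothelial markers PECAM1, CDH5 and VWF stayed at or under 0.345 TPM. Among fibroblast markers COL1A1 reached 19.3 TPM, with COL3A1 and PDGFRB at or under 0.267 TPM. Between 13844 and 14509 genes per library reached 1 TPM, mitochondrial genes held 6.86% to 15.9% of TPM, and sequencing depth is unknown because TPM keeps none.

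PES1 was the most abundant member of the complex in every library, and the siRNA swapped the order of the other members. With siFLuc the mean levels ran PES1, BOP1, WDR12 in all 4 groups, and with siBOP1 they ran PES1, WDR12, BOP1. Over the 24 libraries PES1 stood between the 85.1st and 90.6th percentile of tested genes, WDR12 between the 70.1st and 84.3rd and BOP1 between the 47.5th and 88.7th. Neighbours in the order did not overlap in any siBOP1 group. In siFLuc mock cells at 12 h the ranges overlapped for both pairs of neighbours, and in siFLuc IFN cells at 12 h those of BOP1 and WDR12 overlapped. In 1 library, siFLuc mock 12 h numbered 1, WDR12 (52.8 TPM) stood above BOP1 (51.9 TPM).

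**Figure D1:**
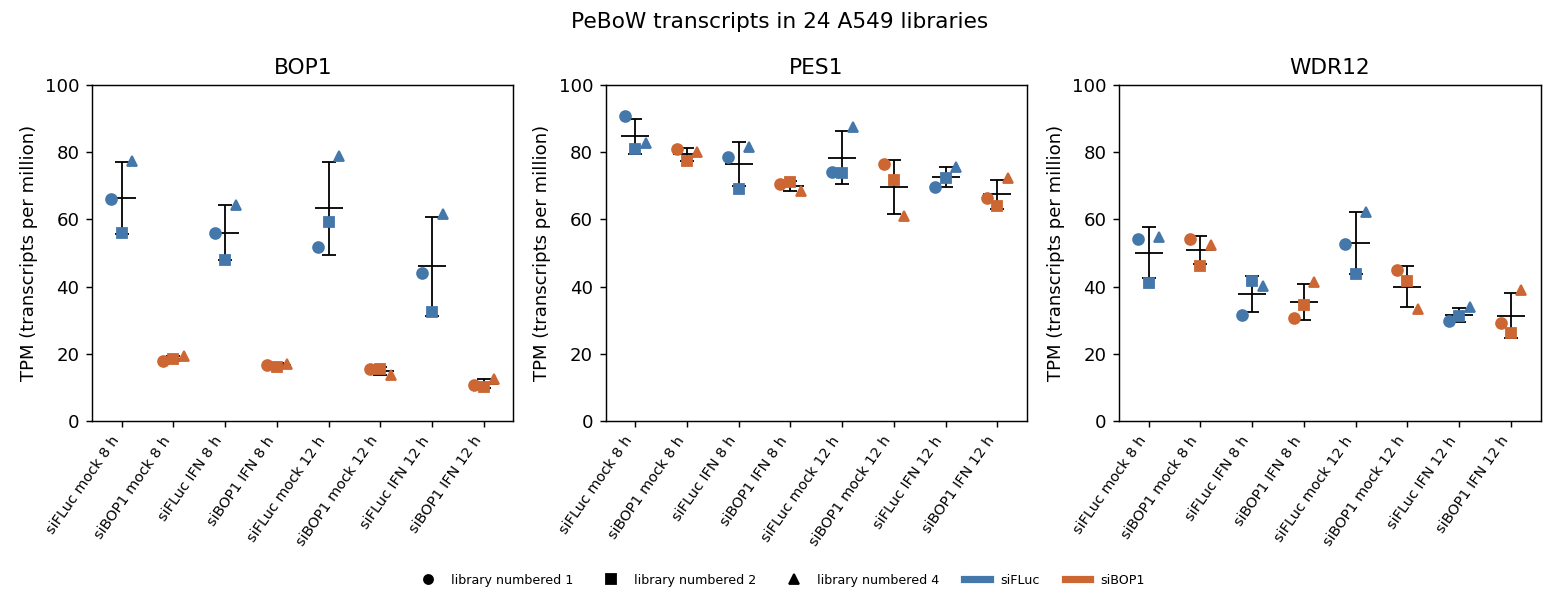
TPM of BOP1, PES1 and WDR12 (y axis) in each of the 24 libraries by group (x axis). Points are libraries, shaped by column number and coloured by siRNA. Horizontal lines and bars are the mean ± SD of 3 libraries. The 12 siBOP1 libraries lie between 10.0 and 19.5 TPM for BOP1, below all 12 siFLuc libraries, the lowest of which is at 32.4 TPM.

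BOP1 lies on the minus strand of chromosome 8 (GENCODE 29 on GRCh38, bases 144262102 to 144291370) and was the siRNA target. It was lower in all 12 siBOP1 libraries than in any siFLuc library, while PES1 and WDR12 overlapped between the siRNAs in all 4 comparisons. In mock cells at 8 h, libraries 1, 2 and 4 held 66.1, 55.9 and 77.3 TPM of BOP1 with siFLuc and 18.0, 18.4 and 19.5 TPM with siBOP1. In mock cells at 12 h they held 51.9, 59.2 and 78.8 TPM against 15.6, 15.4 and 13.7 TPM. The control libraries thus spread more widely than the knockdown libraries, and the groups did not overlap.
With IFN at 8 h, BOP1 read 56.0, 48.0 and 64.4 TPM with siFLuc and 16.6, 16.0 and 17.1 TPM with siBOP1. With IFN at 12 h it read 44.0, 32.4 and 61.6 TPM against 10.7, 10.0 and 12.5 TPM. The lowest BOP1 values of the study were those of siBOP1 cells given IFN for 12 h. As a share of the siFLuc mean, 28.1% of BOP1 remained with mock treatment at 8 h and 23.5% at 12 h, and with IFN 29.6% and 24.1%. BOP1 fell in each of the 4 comparisons, in which 0.666% (8 h) and 0.697% (12 h) of tested genes were called lower under mock treatment by limma at an adjusted p under 0.05, and 0.76% (8 h) and 0.268% (12 h) under IFN. Averaged over the 4, BOP1 fell by 1.84 on the log2(TPM + 1) scale (SE 0.09, limma adjusted p = 2.04e-11), where 6.91% of genes were called lower. When only the 6 libraries compared entered the fit, the call for IFN at 12 h was lost (log2 change -1.92, limma adjusted p = 0.224).

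PES1, the BRCT-domain member, kept 88.9% to 93.6% of its siFLuc mean with siBOP1. In mock cells at 8 h it read 90.8, 81.0 and 82.8 TPM with siFLuc and 81.0, 77.4 and 79.9 TPM with siBOP1. In mock cells at 12 h it read 74.0, 73.9 and 87.4 TPM against 76.5, 71.7 and 60.9 TPM, the library numbered 4 being the highest with siFLuc and the lowest with siBOP1. The PES1 ranges overlapped in all 4 siRNA comparisons. The mean of the 4 changes was -0.12 (SE 0.05, 95% interval -0.22 to -0.03) and missed the threshold (limma adjusted p = 0.0752). Once the column number entered the fit as a block, it passed (adjusted p = 0.0431), as it did after median-of-ratios rescaling (-0.13, adjusted p = 0.0485) and quantile normalization (-0.13, adjusted p = 0.0302). It also passed without the siFLuc IFN 8 h library numbered 2 (adjusted p = 0.044) or the siBOP1 mock 12 h library numbered 1 (adjusted p = 0.0457). In 22 of 24 fits with 1 library left out it missed the threshold, with a limma adjusted p of up to 0.136. From libraries numbered 1 and 2 alone the mean was -0.07 (limma adjusted p = 0.238), and the change in mock cells at 12 h was 0.00.

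WDR12, which carries the docking domain for MDN1, kept 75.6% to 102.0% of its siFLuc mean with siBOP1. The mean of the 4 changes was -0.12 (SE 0.08, 95% interval -0.29 to 0.05, limma adjusted p = 0.367), and none of the 4 passed the threshold. In mock cells at 12 h WDR12 read 52.8, 43.7 and 62.3 TPM with siFLuc and 45.0, 41.7 and 33.3 TPM with siBOP1. That difference, -0.39 (adjusted p = 0.304), rested on the libraries numbered 4. Between libraries of the same number it was -0.22, -0.07 and -0.88, and from numbers 1 and 2 alone it was -0.15. PES1 behaved alike in the same libraries, with differences of 0.05, -0.04 and -0.51.

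The WDR12 mean was lower with IFN in all 4 comparisons, and the mean of those changes, -0.49, was the largest of the 3 members, although the ratio of BOP1 to WDR12 did not pass a test. In siFLuc cells at 8 h WDR12 read 54.2, 41.2 and 54.8 TPM with mock treatment and 31.6, 41.7 and 40.1 TPM with IFN. In siFLuc cells at 12 h it read 52.8, 43.7 and 62.3 TPM with mock treatment and 29.7, 31.4 and 33.8 TPM with IFN. The 12 h groups did not overlap, whereas at 8 h library 2 was level between the treatments.
In siBOP1 cells at 8 h WDR12 read 54.2, 46.2 and 52.3 TPM with mock treatment and 30.6, 34.4 and 41.3 TPM with IFN. In siBOP1 cells at 12 h it read 45.0, 41.7 and 33.3 TPM with mock treatment and 29.1, 26.2 and 38.9 TPM with IFN. The groups were apart at 8 h and overlapped at 12 h, where the libraries numbered 4 ran opposite to the other pairs.
At 12 h WDR12 fell by 0.71 on the log2 scale with siFLuc (limma adjusted p = 0.00478), and at 8 h it fell by 0.52 with siBOP1 (adjusted p = 0.0371). The change was -0.39 with siFLuc at 8 h (adjusted p = 0.146) and -0.35 with siBOP1 at 12 h (adjusted p = 0.174), neither past the threshold. Of all tested genes, 5.07% (8 h) and 6.43% (12 h) were called lower with siFLuc, and 9.11% (8 h) and 7.58% (12 h) with siBOP1. Averaged over the 4, WDR12 fell by 0.49 (SE 0.08, 95% interval -0.66 to -0.32, limma adjusted p = 5.94e-05), where 29.0% of genes were called lower and the median of all genes was -0.10. WDR12 was lower with IFN in 10 of 12 pairs of same-numbered libraries, where 66.1% of all genes lay below 0 by the mean change. A lower value in bulk RNA cannot tell less transcript per cell from fewer cells carrying it.
The siBOP1 8 h call was lost without the mock library numbered 1 (adjusted p = 0.128) or 4 (0.104), without the IFN library numbered 1 (0.154) or 2 (0.107), without a filter on low values (0.0772) and after median-of-ratios rescaling (-0.36, adjusted p = 0.161). That rescaling moved the median of all genes by 0.136 in this comparison. In siBOP1 cells at 12 h WDR12 passed the threshold without the IFN library numbered 4 (-0.51, adjusted p = 0.0474) or from numbers 1 and 2 alone (-0.63, adjusted p = 0.0107), and was -0.23 without the IFN library numbered 2 (adjusted p = 0.519).

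BOP1 itself was also lower with IFN, whichever siRNA the cells carried. Its group mean with IFN was 84.5% (8 h) and 72.7% (12 h) of the mock mean with siFLuc, and 89.0% (8 h) and 74.5% (12 h) with siBOP1. BOP1 was lower in 12 of 12 pairs of same-numbered libraries, by 0.11 to 0.85 on the log2 scale. Of all tested genes, 66.1% lay below 0 by the mean IFN change. The siBOP1 groups did not overlap between treatments at either time, and the siFLuc groups overlapped at both. With siBOP1 the median of all genes was itself at -0.14 (8 h) and -0.08 (12 h). How many of all tested genes had groups apart was not counted for any comparison. None of the 4 comparisons passed the threshold by itself, with changes at 8 h of -0.24 (siFLuc) and -0.16 (siBOP1) and at 12 h of -0.48 (siFLuc) and -0.40 (siBOP1). Their mean passed, BOP1 falling by 0.32 (SE 0.09, limma adjusted p = 0.00735). In that mean 29.0% of genes were called lower, the median of all genes was -0.10 and BOP1 stood at percentile 18 from the lowest. After median-of-ratios rescaling the BOP1 mean was -0.22 (limma adjusted p = 0.0275) and the siBOP1 8 h value was -0.01. In the fit blocked by column number both 12 h values passed as well (adjusted p = 0.0205 with siFLuc and 0.0479 with siBOP1). That fit called 15.8% (siFLuc) and 16.6% (siBOP1) of all genes lower at 12 h. The siFLuc 12 h value was -0.71 without the IFN library numbered 4 (adjusted p = 0.00715), -0.25 without the IFN library numbered 2 (adjusted p = 0.44) and -0.31 without the mock library numbered 4 (adjusted p = 0.309).

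PES1 had the smallest mean change with IFN of the 3. Its mean with IFN was between 88.1% and 96.9% of the mock mean, and its 4 changes of -0.15, -0.11, -0.18 and -0.04 did not pass the threshold. The PES1 ranges were apart between treatments in siBOP1 cells at 8 h and overlapped in the other 3 comparisons. Their mean of -0.12 passed narrowly (SE 0.05, limma adjusted p = 0.0396) and lay close to the median of all genes, -0.10. After median-of-ratios rescaling it was -0.02 (adjusted p = 0.696), and the siBOP1 12 h value turned to 0.03.
Leaving out any of 13 libraries lost the call of the PES1 mean (adjusted p = 0.0523 to 0.0809). Those at 8 h were siFLuc mock 1, siBOP1 mock 1 and 4, siFLuc IFN 2, and siBOP1 IFN 1 and 4. Those at 12 h were siFLuc mock 4, siBOP1 mock 1 and 2, siFLuc IFN 1 and 2, and siBOP1 IFN 1 and 2. The comparisons of siRNA and of IFN share their siFLuc mock and other control libraries, so their values stand side by side and were not related to each other.

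**Figure D2:**
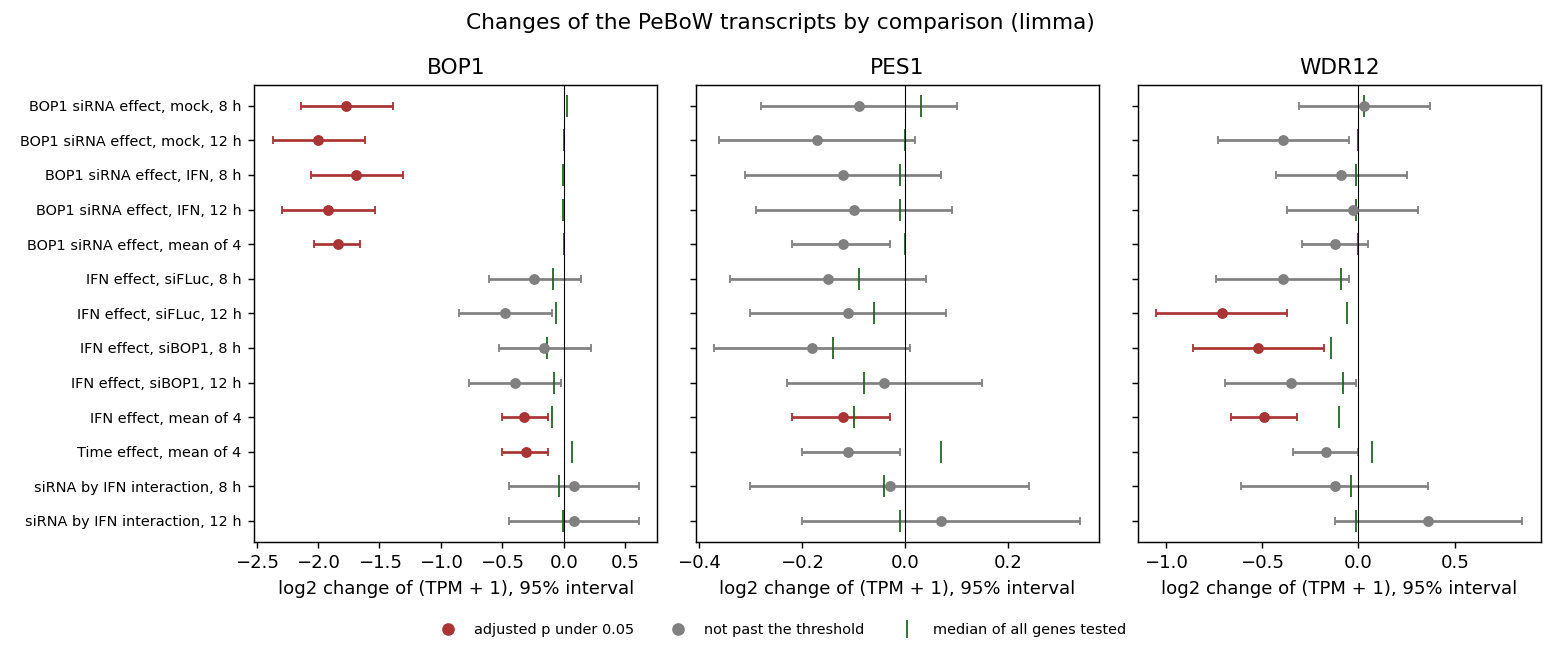
Log2 change of (TPM + 1) with its 95% interval (x axis, a separate range for each gene) for 13 comparisons (y axis). Red points passed an adjusted p of 0.05 in limma, grey points did not, and green ticks give the median of all tested genes. BOP1 stands near -1.84 in the siRNA comparisons, and WDR12 lies left of the green tick in all 4 IFN comparisons, with a mean of -0.49.

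Because each library holds all 3 transcripts, the balance between members was also taken as a log2 ratio of TPM within a library. The ratio of BOP1 to PES1 was -0.36 ± 0.23 (SD, n = 3) in siFLuc mock cells at 8 h and -2.09 ± 0.07 in siBOP1 mock cells. At its lowest, in siBOP1 IFN cells at 12 h, it was -2.61 ± 0.07. Over the 4 strata of treatment and time it differed by -1.79 between siBOP1 and siFLuc (two-sided exact permutation test within strata, p = 1.25e-05, the smallest its 160000 arrangements allow, adjusted over 6 ratio tests 3.75e-05). BOP1 to WDR12 also differed by -1.79, with the same p. WDR12 to PES1 differed by 0.00 between the siRNAs over the 4 strata (exact permutation p = 0.997), a mean of differences of both signs, 0.13 (8 h) and -0.23 (12 h) under mock treatment and 0.03 (8 h) and 0.07 (12 h) with IFN. In mock cells at 12 h all 3 siBOP1 libraries lay below the siFLuc libraries (exact permutation p = 0.1, the smallest that 3 against 3 can give). They nearly touched, the nearest values being -0.764 (siBOP1, library 1) and -0.757 (siFLuc, library 2).
IFN shifted the balance between WDR12 and PES1. Their log2 ratio was -0.77 ± 0.19 and -0.58 ± 0.16 (SD, n = 3) in siFLuc mock cells at 8 h and 12 h, and -1.02 ± 0.29 and -1.20 ± 0.03 with IFN. In siBOP1 cells it was -0.65 ± 0.09 and -0.81 ± 0.06 with mock treatment, and -0.99 ± 0.24 and -1.12 ± 0.21 with IFN. The groups of 12 h did not overlap with either siRNA. With siBOP1 they nearly touched, at -0.894 (IFN) and -0.87 (mock), both in libraries numbered 4. Over the 4 strata WDR12 fell by 0.38 relative to PES1 (exact permutation p = 0.000237, adjusted 0.000474).
Over the 4 strata BOP1 fell by 0.21 relative to PES1 under IFN (exact permutation p = 0.0167, adjusted 0.025). That mean came mostly from 12 h, with differences of -0.38 (siFLuc) and -0.39 (siBOP1). At 8 h they were -0.09 (siFLuc) and 0.02 (siBOP1), and whether the times differed was not tested. The ratio of BOP1 to WDR12 differed by 0.17 (exact permutation p = 0.0816, adjusted 0.0979), a difference that did not pass. That p was under the threshold without the siFLuc IFN library numbered 2 at 8 h (exact permutation p = 0.0247) or 12 h (0.0213), or without the siBOP1 IFN 12 h library numbered 4 (0.0499). These tests shuffled libraries freely within strata. With the signs of the differences between same-numbered libraries flipped instead, an exact test added after seeing the data, no ratio changed its call (BOP1 to WDR12 under IFN, exact permutation p = 0.13, adjusted 0.156).

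**Figure D3:**
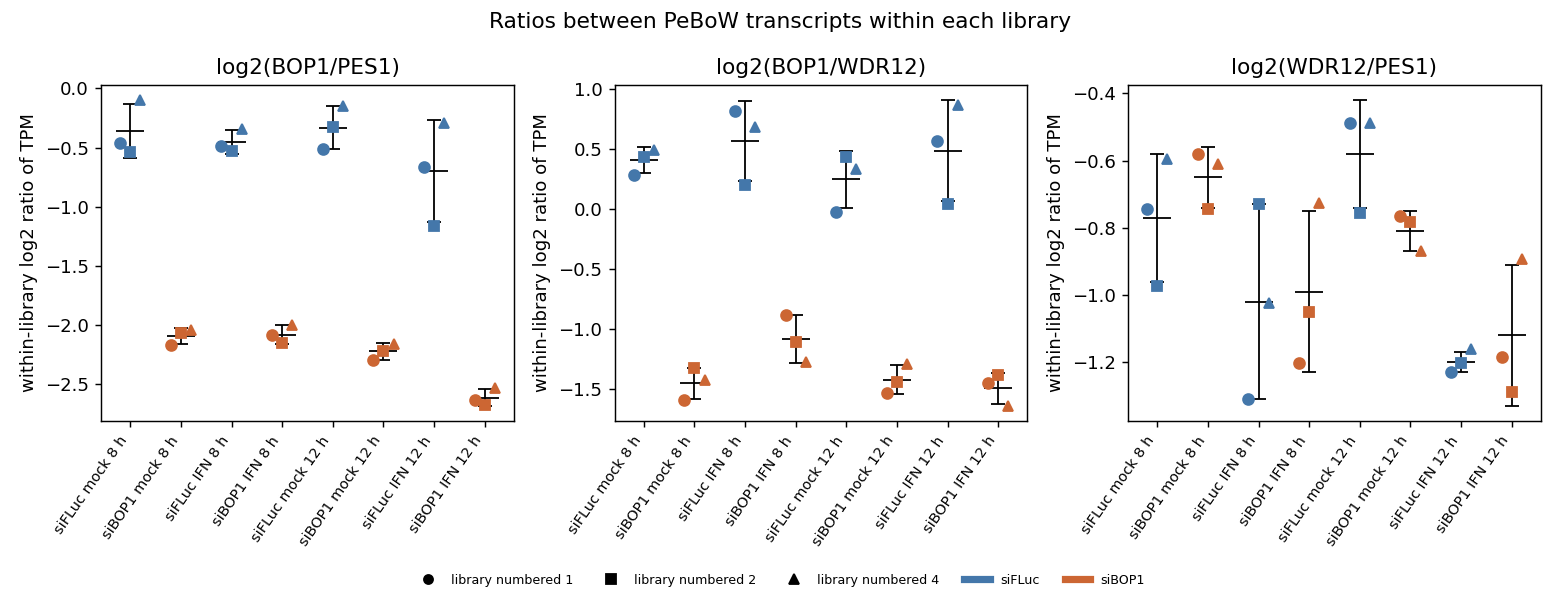
Log2 ratio of the TPM of 2 members within each library (y axis, a separate range for each panel) by group (x axis), with mean ± SD of 3 libraries. The siBOP1 libraries lie below all siFLuc libraries for BOP1/PES1 and BOP1/WDR12. For WDR12/PES1 the siRNA groups overlap except under mock treatment at 12 h, where they nearly touch (-0.764 with siBOP1 and -0.757 with siFLuc). The IFN libraries of 12 h, from -1.29 to -0.89, lie below the mock libraries of that time, narrowly so with siBOP1 (-0.894 with IFN and -0.87 with mock treatment).

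Differences between libraries of the same number show how far single libraries carry these values. For the siRNA the differences ran from -2.44 to -1.52 for BOP1, from -0.51 to 0.05 for PES1 and from -0.88 to 0.20 for WDR12. PES1 was lower with siBOP1 in 10 of 12 pairs and WDR12 in 9 of 12, once by under 0.01. For IFN the differences ran from -0.23 to 0.24 for PES1, which was lower in 11 of 12 pairs, and from -0.86 to 0.22 for WDR12. Pairs were not counted for all genes. By the mean change, 50.1% of all tested genes lay below 0 with siBOP1 and 66.1% with IFN. The highest IFN value of PES1 and of WDR12 came from the pair numbered 4 of siBOP1 cells at 12 h. The mock library of that pair held the lowest PES1 of the study (60.9 TPM) and the lowest WDR12 of the mock libraries (33.3 TPM).

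**Figure D4:**
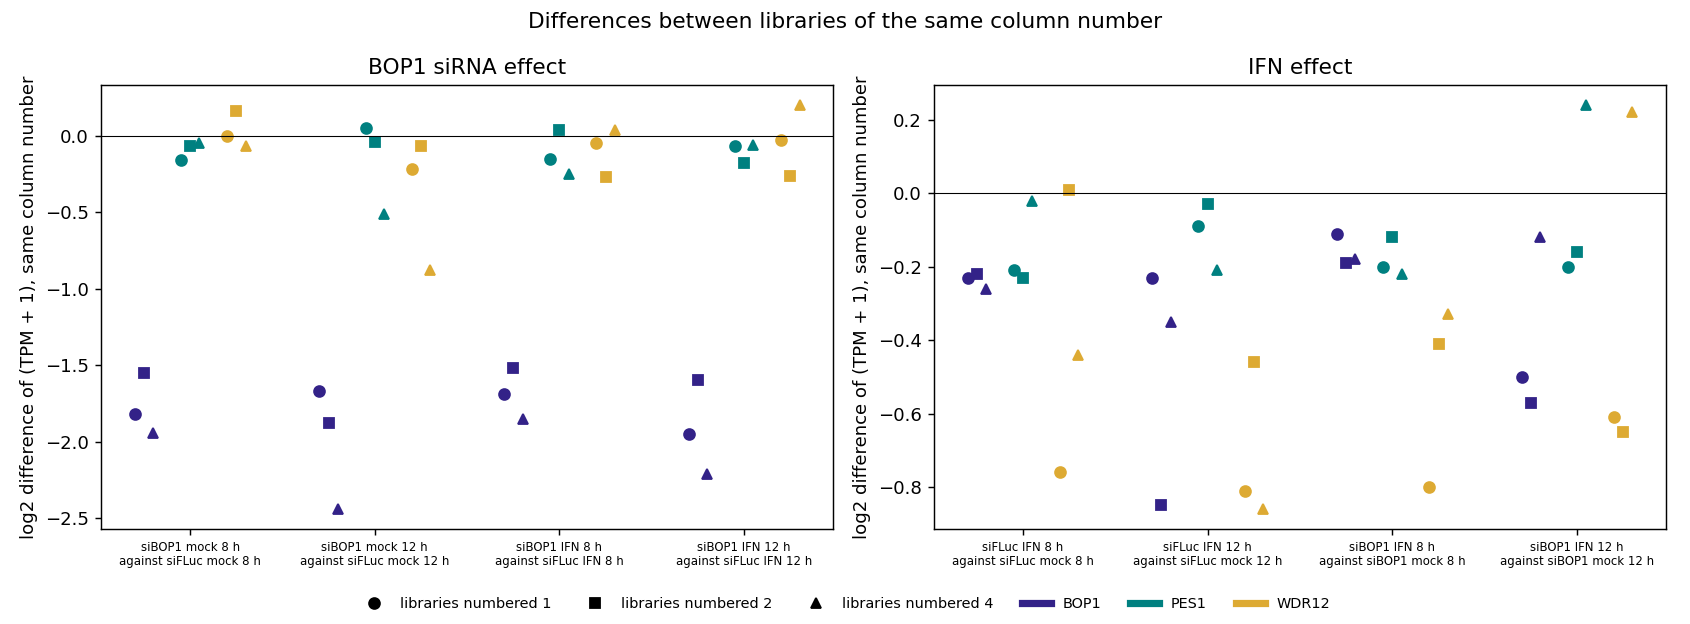
Log2 difference of (TPM + 1) between 2 libraries of the same column number (y axis) for the 4 siRNA comparisons (left) and the 4 IFN comparisons (right). Colours are genes and shapes are column numbers. All 12 BOP1 points lie below 0 in both panels, and the triangles of siBOP1 mock 12 h stand apart for PES1 (-0.51) and WDR12 (-0.88).

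In siFLuc cells the libraries numbered 4 held more BOP1 than the mean of those numbered 1 and 2, by a factor of 1.24 to 1.61 in 4 of 4 groups. In siBOP1 cells that factor was 0.88 to 1.21. For WDR12 it was 1.09 to 1.29 in siFLuc cells and 0.77 to 1.41 in siBOP1 cells, and for PES1 it was 0.96 to 1.18 and 0.82 to 1.11. At 12 h BOP1 was higher by 0.32 in the libraries numbered 4 (limma adjusted p = 0.0258), as were 31.3% of tested genes. At 8 h the difference was 0.20 (adjusted p = 0.22), where 8.55% of genes were called higher. The 12 h value was 0.18 after median-of-ratios rescaling (adjusted p = 0.202) and 0.15 after quantile normalization (adjusted p = 0.297). It also missed the threshold without the siFLuc mock 12 h library numbered 1 (0.0575) or 4 (0.125), or the siFLuc IFN 12 h library numbered 2 (0.0502) or 4 (0.198). PES1 and WDR12 differed by 0.05 and 0.16 at 12 h and passed only without the siBOP1 mock 12 h library numbered 4 (0.16, adjusted p = 0.0238, and 0.33, adjusted p = 0.0205). In 8 of 8 groups the library numbered 4 had the lowest share of mitochondrial TPM, 6.86% to 14.2%, where the other libraries held 12.8% to 15.9%. The lowest was that of siFLuc mock 12 h. The part of that share in these differences was not tested, and no source used here says what the number 4 stands for.

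Between 8 h and 12 h BOP1 fell by 0.31 over the 4 conditions (SE 0.09, limma adjusted p = 0.0158), a direction in which 6.26% of genes were called, while the median of all genes was 0.07. With mock treatment its mean went from 66.4 to 63.3 TPM (siFLuc) and from 18.6 to 14.9 TPM (siBOP1). With IFN it went from 56.1 to 46.0 TPM (siFLuc) and from 16.6 to 11.1 TPM (siBOP1). Whether the conditions differed in their change with time was not tested. PES1 was at -0.11 (adjusted p = 0.09) and WDR12 at -0.17 (adjusted p = 0.13). Both passed after median-of-ratios rescaling (PES1 -0.19, adjusted p = 0.00309, and WDR12 -0.26, adjusted p = 0.022) and after quantile normalization (-0.13, adjusted p = 0.0226, and -0.22, adjusted p = 0.0355). PES1 also passed without the siFLuc mock 12 h library numbered 4 (adjusted p = 0.038) and from numbers 1 and 2 alone (-0.12, adjusted p = 0.0462). The WDR12 mean went from 50.1 to 52.9 TPM in siFLuc mock cells and from 50.9 to 40.0 TPM in siBOP1 mock cells. With IFN it went from 37.8 to 31.6 TPM (siFLuc) and from 35.4 to 31.4 TPM (siBOP1). Time was counted from the treatment, so the groups also differ in hours since transfection.

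The IFN response of the members was not shown to depend on the siRNA. The interaction, the IFN change with siBOP1 minus that with siFLuc, was 0.08 for BOP1 at both times, with 95% intervals from -0.45 to 0.61. For PES1 it was -0.03 (interval -0.30 to 0.24) at 8 h and 0.07 (-0.20 to 0.34) at 12 h. For WDR12 it was -0.12 (-0.61 to 0.36) at 8 h and 0.36 (-0.12 to 0.85) at 12 h. From libraries numbered 1 and 2 alone the WDR12 value at 12 h was 0.00. It was 0.24 without the siFLuc mock or the siBOP1 mock library numbered 4 and 0.20 without the siBOP1 IFN library numbered 4. For each member, PES1 included, the intervals reach values as large as the mean IFN change of the same gene. By limma 0.0% of genes had an adjusted p under 0.05 for the interaction at 8 h and 0.0% at 12 h. Of the 16062 genes tested, 353 (8 h) and 259 (12 h) had an unadjusted p under 0.05. A share of 0.05 is what p-values give when no gene changes, and these counts lie below it. In the fit blocked by column number the counts were 806 (8 h) and 671 (12 h), again with 0 genes called.

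The same assembly steps use many other factors, of which 20 were listed by role, with earlier results of these data known. All 20 were tested. With siBOP1 their changes lay below 0 for 19 (8 h) and 20 (12 h) of 20 genes under mock treatment, where 44.3% and 49.2% of all tested genes did. Under IFN they did for 20 (8 h) and 19 (12 h), where 52.1% and 52.4% of all genes did. The list's median of the mean change was -0.20, where that of all genes was 0.00, and 8 of 20 were called lower and 0 higher, beside 6.91% of all genes called lower. DDX18, a nucleolar DEAD-box helicase, was the only gene of the list called in each single comparison, falling by 0.52, 0.49, 0.47 and 0.49.
By the mean of the 4, the factors of the same processing step that fell were RRP1 (-0.25), NIFK (-0.21) and RSL1D1 (-0.20). NLE1, the other substrate that MDN1 pulls on through a ubiquitin-like domain, fell by 0.34 (SE 0.10, limma adjusted p = 0.0163). FTSJ3 (-0.17), RRP15 (-0.37) and WDR74 (-0.22) completed the 8 genes with DDX18 (-0.49). MDN1 itself stood at -0.21 (SE 0.12, adjusted p = 0.245, and 0.0482 with the block by column number). PES1 and WDR12, each at -0.12, lay nearer 0 than the list's median.
In the fit blocked by column number, 14 of 20 were lower by the mean, where 13.9% of all genes were called lower. The block added DDX27, MDN1, EBNA1BP2, BRIX1, MAK16 and RBM28. In the single comparisons the block gave 1, 5, 3 and 2 lower of 20, in the order mock 8 h, mock 12 h, IFN 8 h, IFN 12 h. The shares of all genes called lower in that order were 2.58%, 3.35%, 3.84% and 1.61%. The mean change stayed below 0 for 20 of 20 after either rescaling, with 7 (median-of-ratios) and 9 (quantile) called lower, beside 8.63% and 9.14% of all genes.

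With IFN, 9 of the 20 were called lower by the mean of the 4 comparisons and 0 higher, beside 29.0% of all genes called lower. The list's median was -0.18 and that of all genes -0.10. RRP1B (-0.37), NIFK (-0.38) and RPL7L1 (-0.18) belong to the same processing step as PeBoW. DDX18 (-0.21), DDX27 (-0.26) and NVL (-0.23) are helicases or ATPases of large-subunit assembly. NLE1 (-0.39), EBNA1BP2 (-0.33) and RPF1 (-0.22) completed the set, and WDR12 at -0.49 lay below all 20. PPAN stood at 0.13 (adjusted p = 0.146) and WDR74 at 0.10 (adjusted p = 0.167, and 0.0468 with the block). In the single comparisons 1 of 20 was lower with siFLuc at either time, beside 5.07% (8 h) and 6.43% (12 h) of all genes, and 2 with siBOP1 at either time, beside 9.11% (8 h) and 7.58% (12 h). Those counts stood near the shares of all genes. With the block 3 (8 h) and 7 (12 h) were lower with siFLuc, where 12.7% and 15.8% of all genes were, and 7 (8 h) and 8 (12 h) with siBOP1, where 20.4% and 16.6% were. By the mean the block gave 11 lower, BRIX1 and MAK16 being added, and 1 higher, WDR74, beside 37.7% of all genes called lower and 16.5% called higher. After median-of-ratios rescaling, 5 were lower and 3 higher by the mean, beside 18.5% and 18.3% of all genes. The list median was then -0.08, where that of all genes was -0.02. Of the list, 11 of 20 genes lay below 0, where 53.8% of all genes did. Quantile normalization gave 9 lower and 1 higher, beside 29.0% and 14.7% of all genes, and a list median of -0.19.

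**Figure D5:**
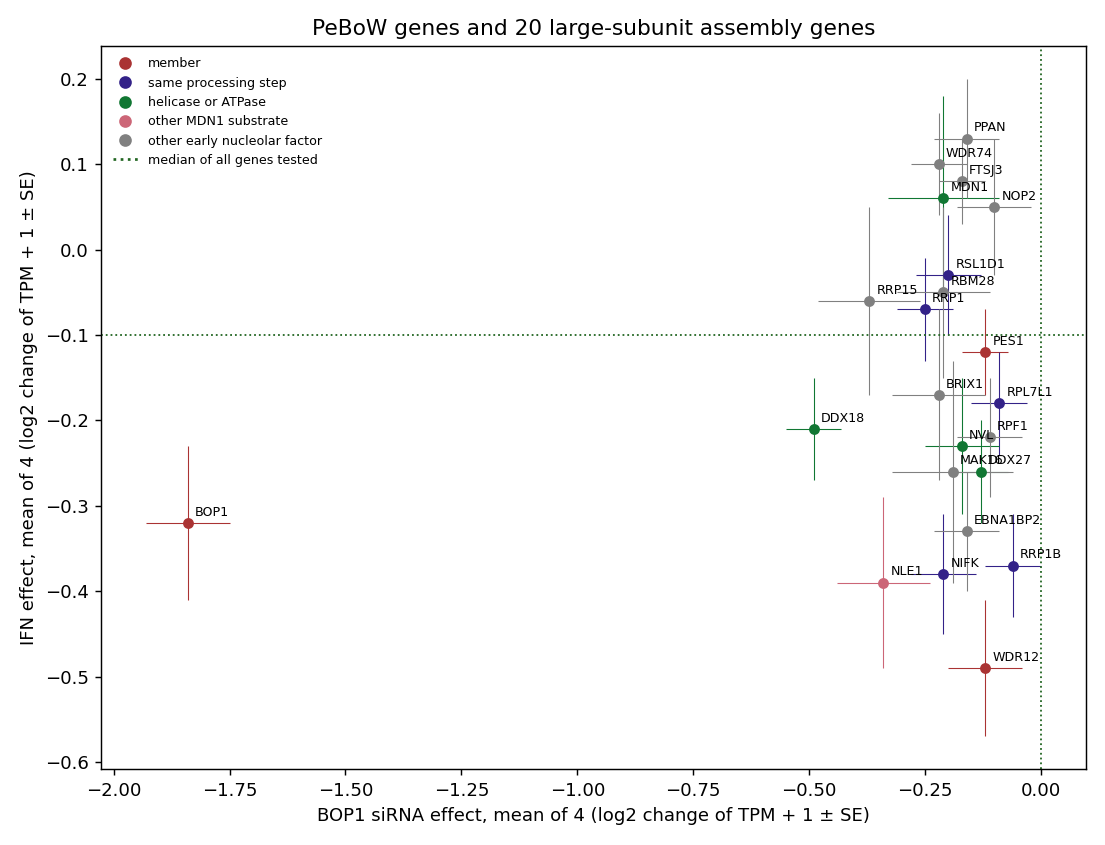
Mean log2 change of (TPM + 1) with siBOP1 (x axis) and with IFN (y axis), each ± SE, for the 3 members and 20 other assembly genes, coloured by role. Dotted lines are the medians of all tested genes. BOP1 stands alone at the left (-1.84), all 20 listed genes lie left of the vertical line, and WDR12 is the lowest point (-0.49). The 2 axes use the same 24 libraries.

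The neighbours of the members on the chromosome were read in the same fit. HSF1, the heat shock factor gene, lies 220 bases from BOP1 on the opposite strand at 45.8 to 75.1 TPM and stood at -0.04 by the mean siRNA change (limma adjusted p = 0.802). SCX, which overlaps BOP1 by 1922 bases on the opposite strand, did not exceed 3.25 TPM. TCN2, a carrier of vitamin B12 whose model overlaps the 5′ end of the PES1 model by 246 bases on the opposite strand, rose with IFN by 1.25 (SE 0.07, adjusted p = 7e-12) and with siBOP1 by 0.54 (adjusted p = 2.34e-05). It reached 24.3 TPM, and PES1 stood at -0.12 in both means. CARF, whose GENCODE model overlaps that of WDR12 by 74850 bases on the opposite strand, had a median of 2.76 TPM. RefSeq's start site of WDR12 lies 103125 bases inside the GENCODE model. With IFN CARF stood at -0.24 (limma adjusted p = 0.0543, and 0.0256 with the block). In siBOP1 cells at 8 h CARF fell by 0.60 with IFN (adjusted p = 0.0406). Of the nearest coding genes without overlap, GAL3ST1, on the same strand as PES1 and 2037 bases away, fell with IFN by 0.45 (adjusted p = 0.000148) and rose with siBOP1 by 0.42 (adjusted p = 0.00101). SLC35E4, on the other side of PES1, rose with siBOP1 by 0.37 (adjusted p = 0.00533) and stood at -0.19 with IFN (adjusted p = 0.0965, and 0.0155 with the block). ICA1L, next to WDR12 on the same strand, fell with IFN by 0.37 (adjusted p = 0.0404). MROH1, 161 bases from BOP1, stood at 0.03 with siBOP1 and -0.01 with IFN by the means. It rose by 0.43 with IFN in siBOP1 cells at 12 h (limma adjusted p = 0.0417). NBEAL1, 80 bases from WDR12, stood at -0.10 with siBOP1 and -0.16 with IFN, neither called. Of 16062 tested genes, 1608 were called higher by the mean siRNA change. By the mean IFN change 2084 were called higher and 29.0% lower. The kit was stranded, but use of the strand in counting was not stated, so reads from these overlaps cannot be told apart.

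Over the 24 libraries the members' log2 levels correlated with each other as follows, as a description, since the libraries share groups, column numbers and the scaling of TPM. Pearson r was 0.63 for BOP1 and PES1, 0.40 for BOP1 and WDR12 and 0.73 for PES1 and WDR12. Within the 12 siFLuc libraries the same pairs gave 0.74, 0.69 and 0.63, and within the 12 siBOP1 libraries 0.71, 0.79 and 0.85. After removal of the group means they gave 0.58, 0.46 and 0.56 over 24 libraries, so libraries of 1 group with more of a member tended to hold more of the others.
Among 10599 genes compared over the 24 libraries, those most like BOP1 were CYFIP1 (r = 0.974), XRCC6 (0.965), YWHAZ (0.954), BUD13 (0.951) and RPSA (0.95). These libraries include both siRNAs, between which BOP1 differed by -1.84, so the likeness includes that difference. Most like PES1 were NAT10 (0.853), LEO1 (0.838), DDX56 (0.833), EIF3CL (0.827) and EIF3J (0.825). NAT10 is the nucleolar acetyltransferase of ribosomal RNA, and DDX56 is a nucleolar helicase. Most like WDR12 were VDAC3 (0.891), INHBB (0.888), PDSS1 (0.886), CALM2 (0.881) and PHB2 (0.874).
Within the 12 siFLuc libraries the closest genes were others: COTL1 (0.974) for BOP1, PSMD3 (0.943) for PES1 and GPSM2 (0.94) for WDR12. No member appeared among the 5 closest genes of another.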

How the data were processed

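The authors deposited 1 table of TPM values for 24 libraries and 60609 gene rows, in which each column sums to 1000000. Per the labels' protocols, the kit was a stranded one for mRNA. The aligner, quantifier, genome build and annotation are not given in the sources used here. TPM keeps no depth, so no counting interval is given. Symbols were matched for 60340 rows by Ensembl ID, and positions come from GENCODE 29.

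After adding a pseudocount of 1 and taking log2, changes were tested in limma (version 3.58.1, R version 4.3.3, 1 mean per group, 24 libraries, trended variance, Benjamini-Hochberg adjustment over 16062 genes, threshold 0.05). The fit was checked on simulated data. The pseudocount understates the change of low genes. Ratios were compared with exact permutation tests. Group values are mean ± SD.

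The members, the list of 20 genes and the markers were chosen with earlier results of these data known. The rule for named genes was the 3 members, the listed genes that were called, and the 5 genes of highest Pearson r for each member.

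Of the columns, 16 matched labelled replicates 1 and 2, and 8 are numbered 4. Same-numbered libraries deviated together in all 24 pairs (r = 0.115 to 0.508), so a second fit, blocked by column number inside each time, is given where it changes a call. Alternative settings were no filter, a pseudocount of 0.1, a mean of at least 5 TPM, median-of-ratios rescaling, quantile normalization, no variance trend, only the groups compared, the block, numbers 1 and 2 alone, and leaving out each library. The block with each rescaling and a block in the ratio tests were added after seeing the data. No column was left out.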

Additional observations from a re-analysis of the deposited data

How the results depend on the processing

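Under settings other than leaving out a library, 419 values kept their direction and side of the threshold, 11 lost a call, 19 gained one and 16 changed sign, none of them past the threshold. With a library left out these counts were 585, 21, 10 and 32.

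Without a filter WDR12 with IFN in siBOP1 cells at 8 h (-0.52), the PES1 IFN mean (-0.12) and BOP1 in the libraries numbered 4 at 12 h (0.32) lost their calls. Without the trend the PES1 IFN mean did (-0.12), and with only the groups compared the BOP1 siRNA effect under IFN at 12 h did (-1.92). The cause was not tested.

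Median-of-ratios rescaling gave -0.01 for WDR12 with siBOP1 in mock cells at 8 h, 0.03 for PES1 with IFN in siBOP1 cells at 12 h, 0.04 for the PES1 interaction at 8 h and -0.09 for PES1 in number 4 at 12 h. It gave calls to the PES1 siRNA mean (-0.13) and to the time effects of PES1 (-0.19) and WDR12 (-0.26), and took them from WDR12 in siBOP1 cells at 8 h (-0.36), the PES1 IFN mean (-0.02) and BOP1 in number 4 at 12 h (0.18). Quantile normalization gave 0.00, -0.01, -0.09 and -0.02 for WDR12 in mock cells at 8 h, PES1 in number 4 at 8 h and 12 h and WDR12 in number 4 at 12 h. It added the PES1 siRNA mean (-0.13), BOP1 with IFN in siFLuc cells at 12 h (-0.51) and the time effects of PES1 (-0.13) and WDR12 (-0.22), and took BOP1 in number 4 at 12 h (0.15).

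The replicate block by column number added calls for the PES1 siRNA mean (-0.12) and BOP1 with IFN at 12 h in siFLuc (-0.48) and siBOP1 cells (-0.40), and changed no other call of a member. No block value exists for time, in which the numbers are nested, or for number 4. The block with median-of-ratios rescaling gave -0.01 (WDR12, mock, 8 h), -0.13 (PES1 siRNA mean), -0.42 (BOP1, siFLuc IFN, 12 h), -0.36 (WDR12, siBOP1 IFN, 8 h), 0.03 and -0.02 (PES1 with IFN, siBOP1 at 12 h and mean) and 0.04 (PES1 interaction, 8 h). With quantile normalization the block gave 0.00, -0.13, -0.51 and -0.39 for WDR12 in mock cells at 8 h, the PES1 siRNA mean and BOP1 with IFN at 12 h in siFLuc and siBOP1 cells.

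Numbers 1 and 2 alone gave 0.00 for PES1 with siBOP1 in mock cells at 12 h, 0.06 and -0.12 for the PES1 interactions and -0.02 for the WDR12 to PES1 ratio between siRNAs. They added BOP1 with IFN at 12 h in siFLuc (-0.54) and siBOP1 cells (-0.54), WDR12 in siBOP1 cells at 12 h (-0.63) and the PES1 time effect (-0.12).

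With each library left out in turn, the results that changed a call or sign ran as follows. BOP1 ran from -0.71 to -0.25 (IFN, siFLuc, 12 h), 0.20 to 0.48 (number 4, 12 h), and -0.04 to 0.19 and -0.14 to 0.31 (interactions, 8 h and 12 h). PES1 ran from -0.14 to -0.10 (siRNA mean), -0.14 to -0.10 (IFN mean), -0.13 to 0.03 (IFN, siBOP1, 12 h), -0.13 to -0.08 (time), -0.10 to 0.02 and -0.02 to 0.14 (interactions) and -0.03 to 0.04 and -0.01 to 0.16 (number 4). WDR12 ran from -0.10 to 0.10, -0.21 to 0.00 and -0.19 to 0.09 (siRNA in mock 8 h, IFN 8 h and IFN 12 h), -0.63 to -0.42 and -0.51 to -0.23 (IFN in siBOP1, 8 h and 12 h), -0.24 to 0.01 (interaction, 8 h) and 0.05 to 0.33 (number 4, 12 h). The BOP1 to WDR12 ratio under IFN ran from 0.13 to 0.23 and WDR12 to PES1 between siRNAs from -0.04 to 0.04. The fit of only the groups compared was not run for means of 4, which use all groups. No interval for depth can be given from TPM.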
